A study of Homo sapiens with 16 samples.

Results

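The MHC class II genes described here are HLA-DRA, HLA-DRB1, HLA-DPA1, HLA-DPB1, HLA-DQA1, HLA-DQB1, HLA-DMA, HLA-DMB and CD74, together with CIITA. These 10 genes were chosen by symbol from a table of 60669 genes, with earlier results of these data known, and each symbol matched a single entry. RNA came from Molm13 (MOLM-13), a line of human leukaemia cells of the acute myeloid kind with an MLL fusion, a genotype that every group shares. Cells were cultured for 4 days with an EZH2 inhibitor and a PRMT5 inhibitor together (the combination, for which the labels give no dose apart from the 1 µM of each inhibitor), with the PRMT5 inhibitor alone at 1 µM (PRMT5i), with the EZH2 inhibitor alone at 1 µM (EZH2i), or with 0.005% DMSO. Each group had 4 libraries. EZH2 is the catalytic subunit of the polycomb complex PRC2, and PRMT5 is an arginine methyltransferase. The series title asks how arginine methylation by PRMT5 relates to repression by PRC2. The labels name neither compound, and nothing in them says that the replicates were separate cultures, so the spread behind the p-values is that between the 4 libraries of a group and may be technical.

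MHC class II molecules present peptides from the endosomal route to CD4+ T cells. HLA-DR, HLA-DP and HLA-DQ each pair an alpha chain with a beta chain, the invariant chain CD74 occupies the groove during assembly, and HLA-DM exchanges the remnant of CD74 for antigenic peptide. Transcription of the class II genes depends on CIITA, a coactivator that binds no DNA itself and is recruited by RFX, CREB and NF-Y factors standing on the X, X2 and Y boxes of the promoters. Dendritic cells, B cells and macrophages express class II constitutively or after induction, and interferon gamma induces CIITA through JAK signalling. In acute myeloid leukaemia the level of class II molecules on blasts varies, and they take part in recognition by T cells.

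The libraries held 31142456 to 52885899 expected counts. On a principal component analysis of log2 CPM (expected counts scaled to the size of each library), the leading component carried 36.5% of the variance and separated all 8 libraries with PRMT5i from all 8 without it. DMSO replicate 1 stood apart: mitochondrial transcripts made up 1.7% of its counts, against 0.213 to 0.792% in the other 15 libraries, and its scaling factor was 0.8607, against 0.9586 to 1.071. Results that rest on DMSO replicate 1 are given with and without it. On the next component, with 16.8% of the variance, DMSO replicate 2 lay at -32.1, against 22.9 to 62.3 for the other DMSO libraries. EZH2i libraries lay at -49.5 to 2.1 there, so this control sat within the EZH2i range. The cause was not tested. The markers fixed for myeloid leukaemia cells fitted the label: all 10 passed the filter on low counts, and their summed level was 2364 to 2549 CPM with the combination, 2700 to 2988 CPM with PRMT5i, 2170 to 2418 CPM with EZH2i and 2205 to 2433 CPM with DMSO. Fewer cells of a kind and less RNA per cell cannot be told apart in such bulk samples.

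Coordinates are those of GENCODE release 29 on GRCh38. The HLA genes lie in the class II region of chromosome 6: HLA-DRA at 32439842 to 32445046 (plus strand), HLA-DRB1 at 32578769 to 32589848 (minus), HLA-DQA1 at 32628179 to 32647062 (plus), HLA-DQB1 at 32659467 to 32668383 (minus), HLA-DMB at 32934629 to 32941070 (minus), HLA-DMA at 32948613 to 32969094 (minus), HLA-DPA1 at 33064569 to 33080775 (minus) and HLA-DPB1 at 33075926 to 33087201 (plus). CD74 lies on chromosome 5 at 150401637 to 150412929 (minus), and CIITA on chromosome 16 at 10866222 to 10943021 (plus). Some members share sequence with other genes, which makes their counts less certain. Of the 50-base stretches of its transcripts, CIITA shared 11.5% with other genes, HLA-DRB1 9.92%, HLA-DMB 8% and HLA-DMA 4.52%, the other 6 members 2.07% or less, and HLA-DRA, HLA-DPA1 and CD74 none. RSEM gave CIITA a value that was not whole in all 16 libraries. Exons of DEXI on the opposite strand cover 11.6% of the exon bases of CIITA, and the strandedness of the libraries is not stated. DEXI averaged 20.7 CPM with the combination, 26.0 CPM with PRMT5i, 18.1 CPM with EZH2i and 21.9 CPM with DMSO, and its log2 fold change was 0.24 with PRMT5i against DMSO and -0.33 with the combination against PRMT5i; its part in the CIITA values was not tested. Whether the HLA alleles of this cell line match the reference closely enough for full alignment was not tested.

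Promoter sequences were available for 8 of the 10 members, from RefSeq on GRCh38.p14, each covering 250 bases before to 50 bases after a gene's start. CD74, the member with the lowest fold change with the combination against DMSO, is shown because the rule for sequences named it. The other 4 were chosen after the sequences had been read, so what they share follows from that choice. A link between these sequences and the fold changes was not tested. The promoters shown are HLA-DRB1 (chr6:32589799-32590098, minus strand), HLA-DQB1 (chr6:32666608-32666907, minus), HLA-DMA (chr6:32953048-32953347, minus), HLA-DMB (chr6:32940979-32941278, minus) and CD74 (chr5:150412861-150413160, minus). All are read 5′ to 3′ on the gene's strand. Capitals mark ATTGG or its reverse complement CCAAT (the core letters of a Y box), GCAAC (letters of an X box) and ACNGATG, a motif picked after these sequences had been read.
HLA-DRB1: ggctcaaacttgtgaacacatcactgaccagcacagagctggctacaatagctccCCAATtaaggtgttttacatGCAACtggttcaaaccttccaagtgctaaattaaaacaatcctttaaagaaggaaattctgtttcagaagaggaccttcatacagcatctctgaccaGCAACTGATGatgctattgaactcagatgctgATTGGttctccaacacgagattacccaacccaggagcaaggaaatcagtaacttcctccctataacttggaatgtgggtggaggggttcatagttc
HLA-DQB1: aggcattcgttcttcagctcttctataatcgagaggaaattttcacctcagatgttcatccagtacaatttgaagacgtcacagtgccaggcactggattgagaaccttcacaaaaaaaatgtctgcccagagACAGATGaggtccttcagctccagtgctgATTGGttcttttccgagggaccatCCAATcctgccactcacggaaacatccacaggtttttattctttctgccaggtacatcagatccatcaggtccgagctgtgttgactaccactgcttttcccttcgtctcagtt
HLA-DMA: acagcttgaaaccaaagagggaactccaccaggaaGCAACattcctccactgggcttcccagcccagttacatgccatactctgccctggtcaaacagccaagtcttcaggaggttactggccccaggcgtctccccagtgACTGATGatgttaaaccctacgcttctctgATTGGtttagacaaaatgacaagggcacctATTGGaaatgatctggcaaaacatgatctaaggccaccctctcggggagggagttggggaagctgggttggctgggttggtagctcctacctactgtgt
HLA-DMB: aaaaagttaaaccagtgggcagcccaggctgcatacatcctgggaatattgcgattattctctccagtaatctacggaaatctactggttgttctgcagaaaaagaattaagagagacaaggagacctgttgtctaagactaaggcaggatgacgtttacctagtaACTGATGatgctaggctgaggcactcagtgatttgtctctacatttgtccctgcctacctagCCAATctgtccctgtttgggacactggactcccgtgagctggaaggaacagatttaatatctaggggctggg
CD74: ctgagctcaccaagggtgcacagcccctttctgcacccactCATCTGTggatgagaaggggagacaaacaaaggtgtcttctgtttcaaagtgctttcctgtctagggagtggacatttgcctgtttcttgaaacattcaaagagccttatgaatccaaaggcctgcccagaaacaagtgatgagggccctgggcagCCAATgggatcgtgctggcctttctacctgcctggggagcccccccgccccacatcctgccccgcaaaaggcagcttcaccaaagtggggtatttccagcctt

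In RefSeq promoters, ATTGG was found on either strand in 7 of the 8 members, against 34.6% of all 35116 promoters. GCAAC was found in 3 of the 8, against 33.6%. GCAAC followed on the same strand by ATTGG after 20 to 40 bases was found in HLA-DRB1, against 0.686% of all promoters. ACNGATG was found on the gene's strand in HLA-DRB1, HLA-DQB1, HLA-DMB and HLA-DMA and on the opposite strand in CD74, against 7.65% of all promoters on either strand. It began 75 bases before the start of HLA-DRB1, 117 before HLA-DQB1, 84 before HLA-DMB and 109 before HLA-DMA. In HLA-DRB1 and HLA-DQB1 an ATTGG followed after 22 bases, and in HLA-DMA after 23. HLA-DMB held ATTGG only on the opposite strand, 22 bases before the start. ACNGATG followed by ATTGG on the same strand after 10 to 40 bases was found in 74 of all 35116 promoters, or 0.211%. In HLA-DRB1 the last letters of a GCAAC are the first letters of its ACNGATG. The CD74 window held a CCAAT 53 bases before the start and, like the HLA-DMB window, no such pairing. A match describes letters in a window and not a bound site, and ACNGATG, having been chosen on these members, says nothing independent about them.

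Among the class II genes and CIITA, 7 members rose with PRMT5i and, at lower folds, with the combination. HLA-DPA1, HLA-DPB1 and HLA-DQA1, with few counts, are given apart below. Relative to DMSO, the folds with PRMT5i were 10.5 for HLA-DRA, 8.45 for HLA-DRB1, 7.16 for HLA-DMB, 6.13 for HLA-DQB1, 4.98 for CIITA, 4.46 for HLA-DMA and 2.31 for CD74. With the combination the folds over DMSO were 5.11 for HLA-DRA, 4.10 for HLA-DRB1, 3.91 for HLA-DMB, 4.42 for HLA-DQB1, 2.99 for CIITA, 2.16 for HLA-DMA and 1.61 for CD74. These 7 members reached the minimum of 0.242 CPM in all 4 DMSO libraries, so their inclusion did not hang on the treatment. All 7 rose in both comparisons (edgeR quasi-likelihood test, adjusted over 16555 genes, threshold 0.05) and their groups did not overlap. For CD74 with the combination the call was fragile, and it was lost without DMSO replicate 1 (edgeR adjusted p = 0.0596). Over all genes tested, 17.6% rose with the combination and 17.1% with PRMT5i, and 16.7% lay without overlap above DMSO in each of the 2 comparisons. The median log2 fold change of the 7 was 1.97 with the combination and 2.62 with PRMT5i, against 0.002 and -0.003 over all genes tested. The DMSO libraries serve both comparisons. Because the members were chosen with earlier results known, counts of members beside all genes, here and below, describe and lend no independent support.

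**Figure D1:**
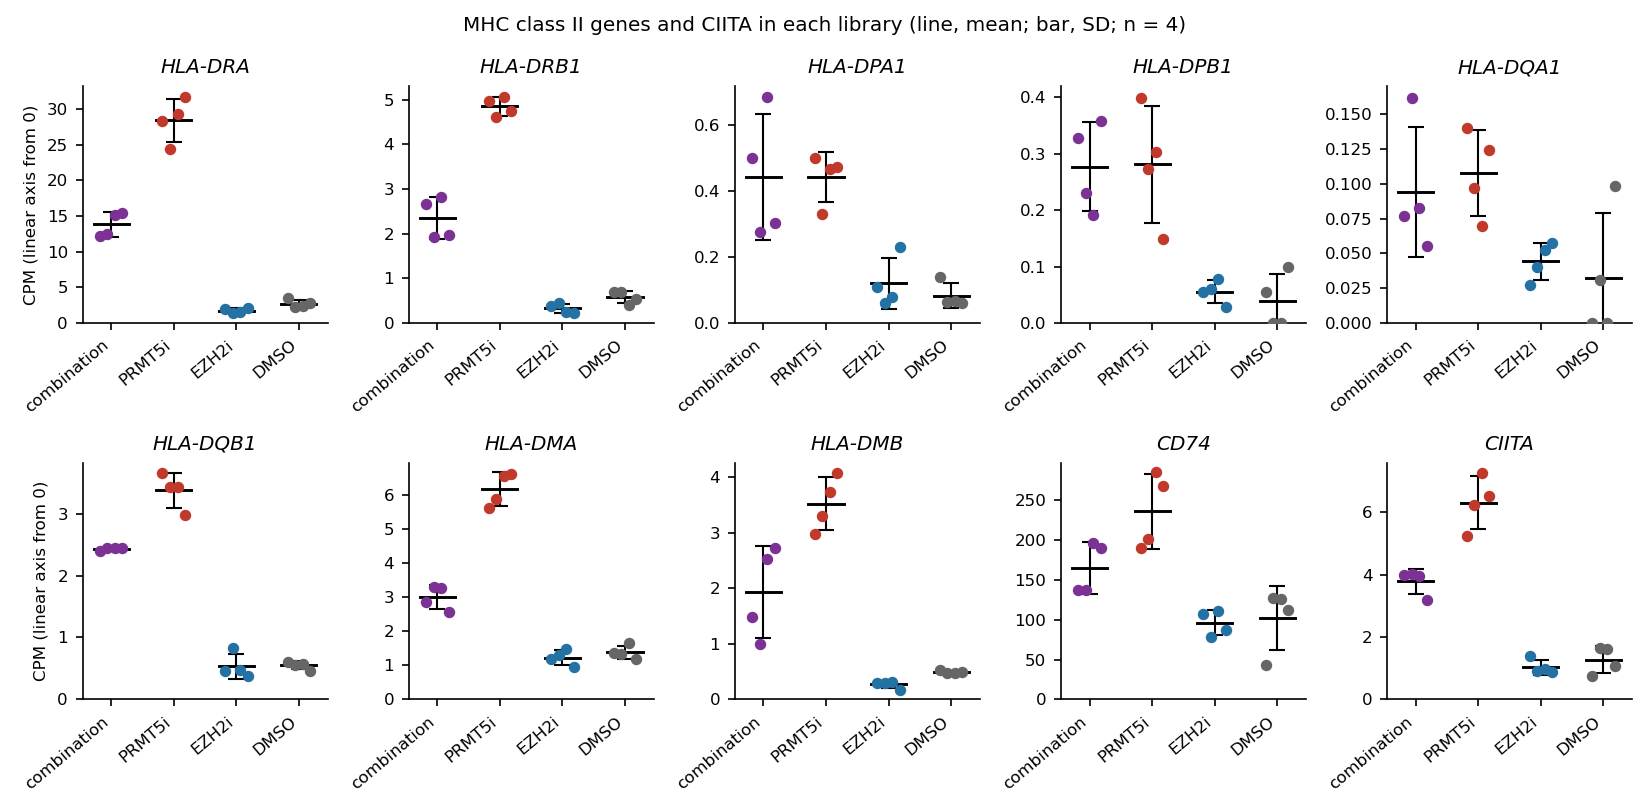
CPM (linear axes from 0, 1 panel a gene) of the 10 members in each of the 16 libraries. Points are libraries in replicate order, the line is the mean and the bar the SD of 4 libraries. In HLA-DRA, HLA-DRB1, HLA-DQB1, HLA-DMA, HLA-DMB and CIITA the PRMT5i points sit above the combination points, and both sit above EZH2i and DMSO.

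CIITA, the coactivator of the family, was lowly expressed in every group. The combination libraries held 3.99, 4.01, 3.95 and 3.19 CPM, the PRMT5i libraries 5.24, 6.22, 7.27 and 6.51 CPM, the EZH2i libraries 1.39, 0.909, 0.962 and 0.873 CPM and the DMSO libraries 0.762, 1.65, 1.61 and 1.06 CPM. PRMT5i libraries were the highest and did not overlap the combination, which in turn lay above both groups without PRMT5i; EZH2i and DMSO overlapped. CIITA averaged 3.79 ± 0.396 CPM with the combination, 6.31 ± 0.840 CPM with PRMT5i, 1.03 ± 0.238 CPM with EZH2i and 1.27 ± 0.432 CPM with DMSO (SD, n = 4 each). Its log2 fold change against DMSO was 1.58 (SE 0.213, edgeR adjusted p = 2.64e-05) with the combination. With PRMT5i it was 2.31 (SE 0.213, edgeR adjusted p = 3.79e-07). In expected counts CIITA stood at 115.88 to 207.14 with the combination, 261.87 to 319.68 with PRMT5i, 30.4 to 50.58 with EZH2i and 27.48 to 72.32 with DMSO.

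HLA-DRA encodes the alpha chain of HLA-DR. It measured 12.2, 12.4, 15.1 and 15.4 CPM in the combination libraries, 28.3, 24.4, 29.2 and 31.7 CPM with PRMT5i, 1.89, 1.41, 1.47 and 2.10 CPM with EZH2i and 3.46, 2.18, 2.34 and 2.78 CPM with DMSO. No group overlapped another: every PRMT5i library was above every combination library, and every DMSO library was above every EZH2i library. The log2 fold change was 2.35 (SE 0.154, edgeR adjusted p = 3.04e-08) with the combination against DMSO. With PRMT5i against DMSO it was 3.40 (SE 0.158, edgeR adjusted p = 5.32e-10), the highest of the members tested. HLA-DRB1, the beta chain that pairs with HLA-DRA, measured 2.66, 1.91, 2.83 and 1.97 CPM with the combination, 4.96, 4.61, 5.06 and 4.75 CPM with PRMT5i, 0.383, 0.442, 0.236 and 0.230 CPM with EZH2i and 0.693, 0.686, 0.401 and 0.533 CPM with DMSO. Its EZH2i and DMSO libraries overlapped, and the other groups were separate. Its log2 fold change was 2.04 (SE 0.212, edgeR adjusted p = 2.27e-06) with the combination against DMSO and 3.08 (SE 0.21, edgeR adjusted p = 2.19e-08) with PRMT5i against DMSO.

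HLA-DQB1, the beta chain of HLA-DQ, measured 2.39, 2.45, 2.44 and 2.45 CPM with the combination, 3.66, 3.42, 3.43 and 2.98 CPM with PRMT5i, 0.466, 0.824, 0.468 and 0.373 CPM with EZH2i and 0.610, 0.561, 0.579 and 0.454 CPM with DMSO. The combination libraries lay close together between PRMT5i and the groups without it. The log2 fold change against DMSO was 2.14 (SE 0.194, edgeR adjusted p = 5.66e-07) with the combination and 2.62 (SE 0.193, edgeR adjusted p = 4.22e-08) with PRMT5i. Its partner HLA-DQA1, the alpha chain, was near the detection limit. It had 2 to 7 counts a library with the combination, 3 to 7 with PRMT5i, 1 to 2 with EZH2i and 0 to 5 with DMSO. It did not pass the filter, and a fit without the filter gave a log2 fold change of 1.54 with PRMT5i against DMSO (SE 0.753, edgeR adjusted p = 0.212 over 34479 genes). At these counts a difference in HLA-DQA1 was not detected, and a rise is not excluded.

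HLA-DPA1 and HLA-DPB1, the chains of HLA-DP, were also close to the limit, and they passed the filter only through the combination and PRMT5i libraries. HLA-DPA1 had 26, 12, 25 and 11 counts with the combination, 25, 17, 20 and 19 with PRMT5i, 4, 3, 3 and 8 with EZH2i and 5, 2, 3 and 3 with DMSO. HLA-DPB1 had 17, 10, 7 and 13 counts with the combination, 20, 14, 13 and 6 with PRMT5i, 2, 3, 3 and 1 with EZH2i and 2, 0, 0 and 5 with DMSO. For both genes the combination and PRMT5i libraries overlapped each other and lay above the rest. The log2 fold changes against DMSO were 2.42 with the combination and 2.42 with PRMT5i for HLA-DPA1 (SE 0.437 and 0.434). For HLA-DPB1 they were 2.64 and 2.67 (SE 0.588 and 0.582). Because of how they entered the test, these genes had to differ and are not counted with the 7 above. HLA-DPB1 no longer passed the filter when only the groups compared were fitted, except between the combination and PRMT5i.

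HLA-DM catalyses peptide loading. Its alpha chain gene HLA-DMA measured 2.85, 3.30, 3.27 and 2.56 CPM with the combination, 5.62, 5.89, 6.55 and 6.63 CPM with PRMT5i, 1.18, 1.30, 1.49 and 0.948 CPM with EZH2i and 1.36, 1.34, 1.65 and 1.18 CPM with DMSO. The combination lay below PRMT5i and above the other groups without overlap, and EZH2i and DMSO overlapped. The log2 fold change against DMSO was 1.11 (SE 0.151, edgeR adjusted p = 2.89e-05) with the combination and 2.16 (SE 0.15, edgeR adjusted p = 2.49e-08) with PRMT5i. Its beta chain gene HLA-DMB measured 1.48, 1.01, 2.52 and 2.73 CPM with the combination, 2.98, 3.31, 3.73 and 4.07 CPM with PRMT5i, 0.301, 0.299, 0.307 and 0.178 CPM with EZH2i and 0.527, 0.468, 0.468 and 0.493 CPM with DMSO. The groups were separate, and the combination libraries were the most spread of the 4 groups. The log2 fold change against DMSO was 1.97 (SE 0.275, edgeR adjusted p = 3.78e-05) with the combination and 2.84 (SE 0.272, edgeR adjusted p = 5.8e-07) with PRMT5i.

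CD74, the invariant chain, was far above the other members in every group and had the lowest folds of the members tested for PRMT5i and for the combination against DMSO. It measured 137, 137, 197 and 190.2 CPM with the combination, 190.2, 202, 286 and 268 CPM with PRMT5i, 107, 78.7, 111 and 87.0 CPM with EZH2i and 43.4, 128, 126 and 112 CPM with DMSO. The value of 43.4 CPM belongs to DMSO replicate 1, the library that stood apart; the other 3 DMSO libraries lay above the whole EZH2i range, and the combination overlapped PRMT5i. The log2 fold change with the combination against DMSO was 0.69 (SE 0.256, edgeR adjusted p = 0.0451). Without DMSO replicate 1 it was 0.42 (edgeR adjusted p = 0.0596). The call was also lost when only the groups compared were fitted (adjusted p = 0.105), and of 16 fits that left out a library it held only in the 5 without combination replicate 1 or 2, PRMT5i replicate 1, or DMSO replicate 2 or 3. With PRMT5i against DMSO the log2 fold change was 1.21 (SE 0.259, edgeR adjusted p = 0.00155). Without DMSO replicate 1 it was 0.94 and still passed.

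**Figure D2:**
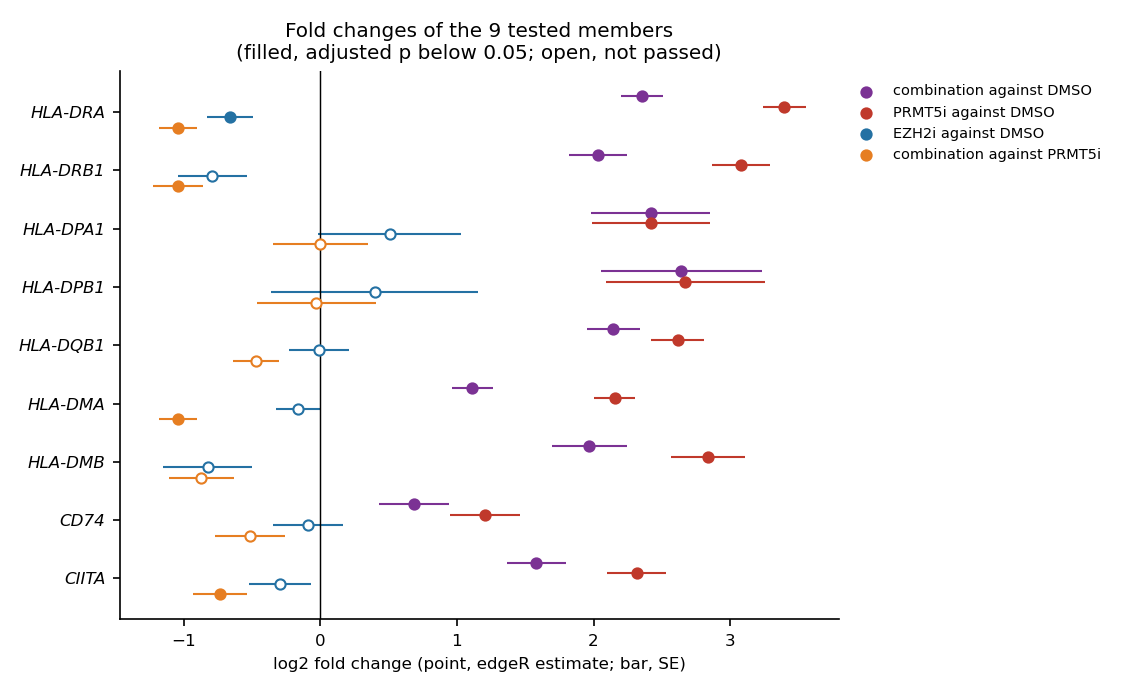
Log2 fold changes (horizontal axis) of the 9 members that passed the filter in 4 comparisons; points are edgeR estimates, bars are SE, and filled points have an adjusted p below 0.05. The PRMT5i and combination points against DMSO are all filled and right of 0, and 4 of the points for the combination against PRMT5i are filled and left of 0. HLA-DPA1 and HLA-DPB1 passed the filter only through the combination and PRMT5i libraries, so their filled points against DMSO lend no support.

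Scaled to exon length, CD74 and HLA-DRA led and HLA-DQA1 came last in all 4 groups. In CPM per kilobase, CD74 averaged 51.9 with the combination, 74.2 with PRMT5i, 30.2 with EZH2i and 32.2 with DMSO. HLA-DRA was next, at 10.8 with the combination, 22.2 with PRMT5i, 1.34 with EZH2i and 2.10 with DMSO. HLA-DRB1 stood at 1.91, 3.94, 0.263 and 0.470 CPM per kilobase in the same 4 groups. With PRMT5i the remaining order was HLA-DMA (2.44 CPM per kilobase), HLA-DMB (0.757), HLA-DQB1 (0.688), CIITA (0.304), HLA-DPB1 (0.101), HLA-DPA1 (0.0769) and HLA-DQA1 (0.0156). In this order HLA-DMB and HLA-DQB1 differed by less than the larger of their SDs (0.103 and 0.0576) and by more than the smaller. The same held for HLA-DPB1 and HLA-DPA1 (SD 0.037 and 0.0132). With DMSO and with EZH2i HLA-DMA stood above HLA-DRB1, at 0.546 against 0.470 with DMSO, a gap smaller than the SD of HLA-DRB1 of 0.113.

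**Figure D3:**
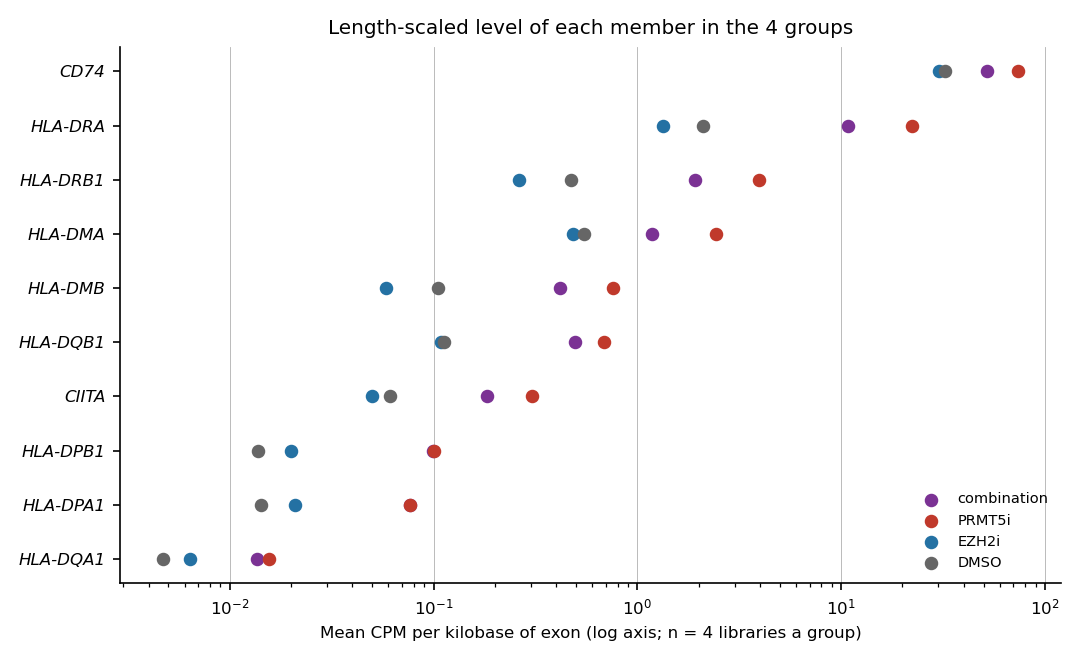
Mean CPM per kilobase of exon (log axis) of the 10 members in the 4 groups, 4 libraries each, ordered by the PRMT5i level. The combination points of HLA-DPB1 and HLA-DPA1 lie under the PRMT5i points, and for the 7 members above them the order from the left is EZH2i, DMSO, combination, PRMT5i.

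With EZH2i alone HLA-DRA fell and no other member passed the threshold. HLA-DRA averaged 1.71 ± 0.333 CPM with EZH2i and 2.69 ± 0.575 CPM with DMSO (SD, n = 4 each), a log2 fold change of -0.66 (SE 0.167, edgeR adjusted p = 0.0249). Over all genes tested, 4.11% rose and 3.49% fell with EZH2i, and 5.12% lay below DMSO without overlap. These all-gene shares moved with single libraries: without DMSO replicate 2, 13.5% rose and 13.7% fell, and without DMSO replicate 4, 1.72% rose and 1.25% fell. Among the 7 members that met the minimum in DMSO, 1 fell, and HLA-DRA and HLA-DMB lay below DMSO without overlap. With EZH2i HLA-DMB had only 6.21 to 14.87 expected counts a library, and HLA-DRB1 8 to 22. Without DMSO replicate 2, the control within the EZH2i range on the next principal component, 1 of the 7 again fell and none rose. The call for HLA-DRA was lost when only the groups compared were fitted (adjusted p = 0.191) and without EZH2i replicate 2, EZH2i replicate 3, DMSO replicate 1 or DMSO replicate 4; without DMSO replicate 1 the log2 fold change was -0.52 (adjusted p = 0.0762). HLA-DRB1 had a log2 fold change of -0.79 (adjusted p = 0.0642) and HLA-DMB of -0.82 (adjusted p = 0.125), and neither passed in the main fit; HLA-DRB1 passed without EZH2i replicate 2 (-1.005) or DMSO replicate 3 (-0.94). The values that did not pass for the rest were -0.29 for CIITA (95% interval from the SE, -0.74 to 0.15), -0.16 for HLA-DMA (-0.47 to 0.15), -0.09 for CD74 (-0.59 to 0.41) and -0.01 for HLA-DQB1 (-0.43 to 0.42). HLA-DPA1 and HLA-DPB1 had log2 fold changes of 0.51 and 0.40 on 1 to 8 counts a library in EZH2i.

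With the combination, part of the class II genes fell relative to PRMT5i alone. HLA-DRA averaged 13.8 ± 1.70 CPM with the combination and 28.4 ± 3.01 CPM with PRMT5i (SD, n = 4 each), a fold of 0.485 (log2 -1.04, SE 0.14, edgeR adjusted p = 0.000689). HLA-DRB1 was at the same fold of 0.485 (log2 -1.04, SE 0.184, adjusted p = 0.00417), and so was HLA-DMA (log2 -1.04, SE 0.142, adjusted p = 0.000689). CIITA was at 0.602 (log2 -0.73, SE 0.196, adjusted p = 0.0448). These 4 of the 7 members fell and none rose, against 1.24% of all genes tested that fell (0.435% without PRMT5i replicate 3 and 2.08% without DMSO replicate 1) and 2.91% that rose, and 6 of the 7 lay below PRMT5i without overlap, against 8.8%. The median log2 fold change of the 7 was -0.87, against 0 over all genes tested. HLA-DMB had -0.87 (adjusted p = 0.0515), HLA-DQB1 -0.47 (adjusted p = 0.15) and CD74 -0.52 (adjusted p = 0.344), and did not pass; HLA-DMB passed with DESeq2 (adjusted p = 0.0195) and without combination replicate 3 or 4, EZH2i replicate 4, or DMSO replicate 1 or 2. Fitting only the combination and PRMT5i put these 3 genes past the threshold as well, 7 in all. The call for CIITA was lost with scaling by total counts only (log2 -0.66, adjusted p = 0.1) and, of 16 fits that left out a library, held only in the 6 without PRMT5i replicate 1, EZH2i replicate 1 or 4, or DMSO replicate 1, 2 or 3, with values between -0.81 and -0.66 over all 16. HLA-DPA1 and HLA-DPB1 were at -0.001 (95% interval, -0.69 to 0.68) and -0.03 (-0.88 to 0.82), intervals that hold the values of CD74 and HLA-DQB1 but not that of HLA-DRA.

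The interaction asks whether the effect of EZH2i on the log2 scale differed in cells with PRMT5i (the combination minus PRMT5i) from that in cells without it (EZH2i minus DMSO). No member passed this test in edgeR, where 0.29% of all genes tested passed, and 1 member, HLA-DMA, passed at an unadjusted p under 0.05. The estimates of the 7 members ran between -0.88 and -0.05, with a median of -0.42 against 0.01 over all genes tested. HLA-DMA had -0.88 (SE 0.213, adjusted p = 0.147): its log2 fold change was -1.04 with PRMT5i present and -0.16 without. DESeq2 called HLA-DMA alone of the members (-0.88, adjusted p = 0.0252). For HLA-DRA the estimate was -0.38 (95% interval, -0.81 to 0.04) and for CIITA -0.44 (-1.03 to 0.15), and both intervals include 0.

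Against EZH2i, all 7 members rose with the combination, against 13.4% of genes tested, and with PRMT5i, against 16.9%. HLA-DRA was 8.08-fold higher with the combination and 16.7-fold higher with PRMT5i than with EZH2i. CD74 was the lowest of the 7, at 1.72-fold with the combination (log2 0.78, SE 0.257, edgeR adjusted p = 0.0312) and 2.46-fold with PRMT5i (log2 1.30, SE 0.259, edgeR adjusted p = 0.000843). The CD74 call for the combination was lost without combination replicate 3 or 4 or EZH2i replicate 2 or 4, with an adjusted p up to 0.0869.

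Of 5 other class II chain genes, HLA-DOB alone passed the filter, and it fell. HLA-DOB, the beta chain of HLA-DO, which restrains HLA-DM, averaged 1.75 ± 0.0532 CPM with the combination, 1.54 ± 0.121 CPM with PRMT5i, 2.24 ± 0.428 CPM with EZH2i and 2.56 ± 0.347 CPM with DMSO (SD, n = 4 each). It fell by 0.53 on the log2 scale with the combination against DMSO (SE 0.149, edgeR adjusted p = 0.0104) and by 0.72 with PRMT5i against DMSO (SE 0.149, edgeR adjusted p = 0.00112). The call with the combination was lost with scaling by total counts only (-0.41). Another transcript on the same strand, AL669918.1, covers 29.7% of its exon bases. AL669918.1 has no row of its own in the count table used here, and neither do AC133065.3, which shares most with CIITA, and AL645941.2, which shares most with HLA-DMA and HLA-DMB, so their levels could not be set beside those of the members. HLA-DOA, HLA-DQA2, HLA-DQB2 and HLA-DRB5 did not pass the filter, and no library gave any of them more than 6.01 expected counts. HLA-DRB5, a further beta chain of HLA-DR that shares sequence with HLA-DRB1, summed over 4 libraries to 3.46 counts with the combination, 13.15 with PRMT5i, 0 with EZH2i and 2.01 with DMSO. In the fit without the filter it passed with PRMT5i against EZH2i (edgeR adjusted p = 0.0153) and not with PRMT5i against DMSO (log2 fold change 2.26, SE 1.03, adjusted p = 0.172). Of 7 class II pseudogenes and antisense RNAs none reached the filter, so none was tested in the main fit. HLA-DPB2, a pseudogene next to HLA-DPA1 and HLA-DPB1 that shares 1.13% of the 50-base stretches of HLA-DPB1, had 0 to 5 counts a library with the combination, 7 to 12 with PRMT5i, 0 to 1 with EZH2i and 0 to 1 with DMSO. Without the filter its log2 fold change was 3.69 with PRMT5i against DMSO (SE 0.896, edgeR adjusted p = 0.00371) and 2.21 with the combination against DMSO (SE 1.00, adjusted p = 0.157), and it also passed with PRMT5i against EZH2i (adjusted p = 0.0015). It is named because of these values.

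The factors that recruit CIITA were expressed in all groups and moved in both directions. Of 7 genes of the promoter complex, all were tested; 2 rose and 2 fell with the combination, and 1 rose and 3 fell with PRMT5i, each against DMSO. Over all genes, 18.5% fell with the combination and 18.3% with PRMT5i. The median log2 fold change of the 7 was -0.11 with the combination and -0.06 with PRMT5i. NFYB, a subunit of NF-Y, fell by 0.63 with the combination (edgeR adjusted p = 0.00516) and by 0.73 with PRMT5i (adjusted p = 0.00176). RFXANK, a subunit of RFX, fell by 0.54 with the combination (adjusted p = 0.00192) and by 0.36 with PRMT5i (adjusted p = 0.0229). RFXAP, another subunit of RFX, fell by 0.49 with PRMT5i (adjusted p = 0.0335) and was at -0.11 with the combination, which did not pass and was 0.006 with scaling by total counts only. NFYC, a subunit of NF-Y, rose by 0.69 with the combination (adjusted p = 0.00804) and by 0.52 with PRMT5i (adjusted p = 0.0378). NFYA rose by 0.69 with the combination (adjusted p = 0.0395), a gene named to complete the count after its value was seen. RFX5 and CREB1 did not pass, and EZH2i moved none of the 7 past the threshold.

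Of 11 genes known to induce or repress CIITA, 3 rose and none fell with the combination, and 4 rose and none fell with PRMT5i, each against DMSO. Over all genes tested, 17.6% rose and 18.5% fell with the combination, and 17.1% rose and 18.3% fell with PRMT5i. JAK2, a kinase of the interferon gamma receptor, averaged 54.2 ± 3.36 CPM with the combination, 66.5 ± 6.37 CPM with PRMT5i, 32.2 ± 4.18 CPM with EZH2i and 39.6 ± 4.98 CPM with DMSO (SD, n = 4 each). Its log2 fold change against DMSO was 0.45 with the combination (edgeR adjusted p = 0.00435) and 0.75 with PRMT5i (adjusted p = 5.54e-05). USF1, a factor that acts at a CIITA promoter, rose by 0.37 with the combination (adjusted p = 0.0093) and by 0.54 with PRMT5i (adjusted p = 0.000508). PRDM1, which represses CIITA in plasma cells, also rose, by 1.29 with the combination (adjusted p = 1.83e-05) and by 1.31 with PRMT5i (adjusted p = 1.23e-05).

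IRF8, a factor of interferon signalling and of myeloid development, differed between the treatments. IRF8 averaged 304 ± 6.90 CPM with the combination, 395 ± 7.33 CPM with PRMT5i, 215 ± 14.8 CPM with EZH2i and 315 ± 18.9 CPM with DMSO (SD, n = 4 each). It rose by 0.33 with PRMT5i against DMSO (edgeR adjusted p = 0.0014), fell by 0.55 with EZH2i against DMSO (adjusted p = 0.000338) and fell by 0.38 with the combination against PRMT5i (adjusted p = 0.00536).

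**Figure D4:**
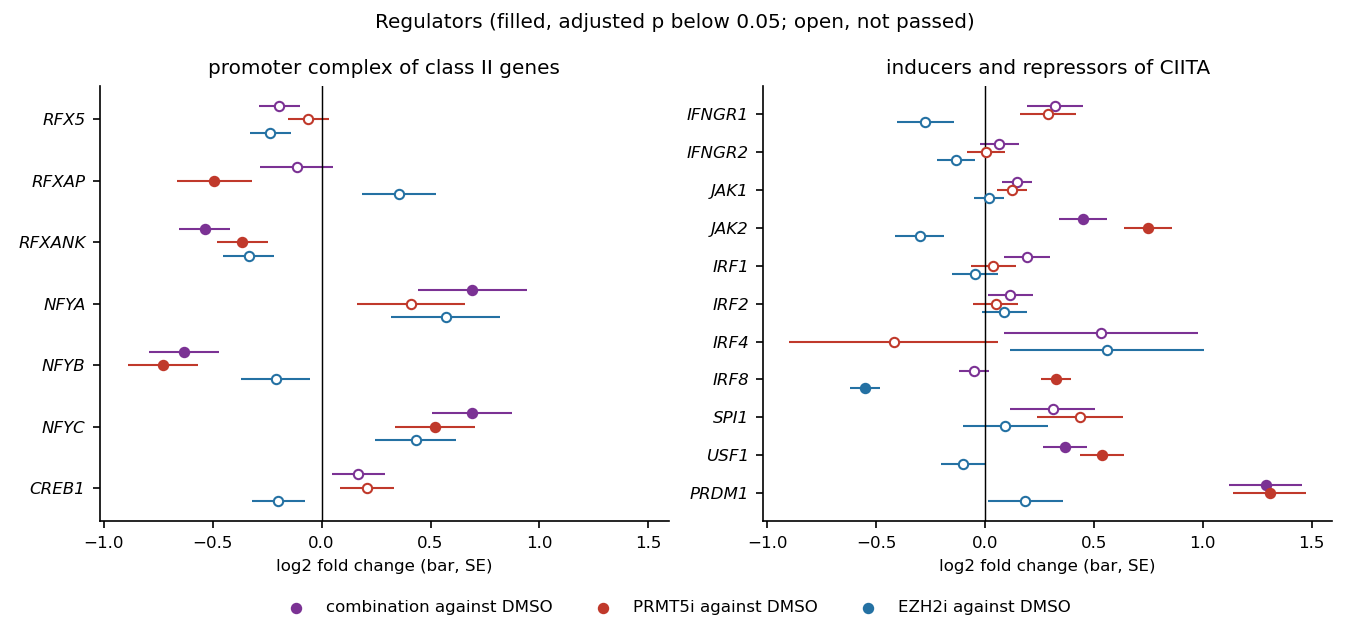
Log2 fold changes against DMSO (horizontal axis) of genes of the promoter complex (left) and of inducers and repressors of CIITA (right) that passed the filter; bars are SE and filled points have an adjusted p below 0.05. Filled points lie on both sides of 0 on the left, and PRDM1 has the highest values on the right.

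Of 10 genes that serve class II molecules in processing and trafficking, 9 were tested; 1 rose with the combination and 2 with PRMT5i, and none fell, each against DMSO. Over all genes tested 17.6% rose with the combination and 17.1% with PRMT5i, a background that holds for every list counted here and is near these counts. MARCH8, a ubiquitin ligase that removes class II molecules from the surface, rose by 0.90 with the combination (edgeR adjusted p = 2.92e-07), by 0.55 with PRMT5i (adjusted p = 2.96e-05) and by 0.54 with EZH2i (adjusted p = 0.000833). Of 4 genes for the ligand and co-receptors of CD74, 2 rose with the combination and the same number with PRMT5i. CD44, a co-receptor of CD74, rose by 0.84 with the combination (adjusted p = 0.000146), by 0.61 with PRMT5i (adjusted p = 0.00209) and by 0.78 with EZH2i (adjusted p = 0.00307). CXCR2, which pairs with CD74 in signalling by the ligand MIF, rose by 0.70 with the combination (adjusted p = 0.00196) and by 1.26 with PRMT5i (adjusted p = 7.72e-06). It fell by 0.56 with the combination against PRMT5i (adjusted p = 0.0451), which no longer passed when scaling used library totals alone and in 12 of the 16 fits that left out a library.

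Of 6 genes listed for costimulation, 4 were tested: CD80, CD86, CD40 and ICOSLG. Against DMSO 2 rose with the combination and 2 with PRMT5i, and none fell. CD274 and PDCD1LG2, which encode inhibitory ligands, did not pass the filter. CD80 and CD86 deliver a second signal to T cells beside class II. CD80 averaged 6.60 ± 0.869 CPM with the combination, 6.84 ± 1.08 CPM with PRMT5i, 1.15 ± 0.274 CPM with EZH2i and 1.48 ± 0.338 CPM with DMSO (SD, n = 4 each). Its log2 fold change was 2.15 (edgeR adjusted p = 4.08e-07) with the combination and 2.20 (adjusted p = 1.77e-07) with PRMT5i. CD86 rose by 0.49 with the combination (adjusted p = 0.013) and by 0.79 with PRMT5i (adjusted p = 0.000327). Neither gene passed between the combination and PRMT5i.

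Markers of other cells that carry class II were read alongside. The 8 B cell markers summed to 1.39 to 1.64 CPM with the combination, 1.39 to 2.03 CPM with PRMT5i, 0.767 to 1.28 CPM with EZH2i and 0.721 to 1.22 CPM with DMSO, and MS4A1 was at 0 in every combination and DMSO library. These sums were low, yet every library with the combination or PRMT5i lay above every EZH2i and DMSO library. Of 4 B cell markers tested, none passed with the combination against DMSO (median log2 fold change 0.78), and 1 rose with PRMT5i (median 0.72). The 11 dendritic cell markers summed to 8.69 to 11.5 CPM with the combination, 9.16 to 12.0 CPM with PRMT5i, 6.95 to 11.9 CPM with EZH2i and 10.3 to 12.7 CPM with DMSO, so their sum did not rise. Of 7 tested, 4 rose and 1 fell with the combination (median log2 fold change 0.95). With PRMT5i 5 rose and 1 fell (median 1.07). FCER1A rose by 2.20 with the combination (edgeR adjusted p = 0.000152) and by 1.66 with PRMT5i (adjusted p = 0.00166), and ZBTB46 by 0.94 (adjusted p = 0.000718) and 1.07 (adjusted p = 0.000193). BATF3, needed for cross-presenting dendritic cells, fell by 2.68 with the combination (adjusted p = 5.01e-08) and by 2.91 with PRMT5i (adjusted p = 1.28e-08). Of 10 markers of myeloid leukaemia cells, 3 rose and 7 did not pass with the combination (median log2 fold change 0.14), and 5 rose, 1 fell and 4 did not pass with PRMT5i (median 0.31), beside the 17.6% and 17.1% of all genes that rose. The 1 that fell with PRMT5i was AZU1, a protein of neutrophil granules (log2 -0.72, adjusted p = 0.0383), named after its value was seen. ITGAM, an integrin of maturing myeloid cells, rose by 1.39 with the combination (adjusted p = 6.06e-08) and by 1.47 with PRMT5i (adjusted p = 2.02e-08), CD33 by 0.43 (adjusted p = 0.000448) and 0.50 (adjusted p = 8.66e-05), and CSF1R by 1.00 (adjusted p = 0.00834) and 1.26 (adjusted p = 0.00152). The part of these markers in the class II result was not tested.

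T and NK cell markers summed to 180.5 to 205 CPM with the combination, 158 to 215 CPM with PRMT5i, 221 to 295 CPM with EZH2i and 112 to 257 CPM with DMSO, of which CD4, also carried by myeloid cells, made up 128 CPM on average with the combination and 122 CPM with DMSO. Of 5 tested, 1 rose with the combination, GNLY by 0.94 (edgeR adjusted p = 0.0371), and with PRMT5i 1 rose and 1 fell. Epithelial and endothelial markers summed to 131 to 137 CPM with the combination, 130.5 to 162 CPM with PRMT5i, 90.4 to 105 CPM with EZH2i and 47.3 to 95.7 CPM with DMSO. The sums came mainly from PECAM1, which leukocytes also express. CDH1 was at 0 in all libraries, and EPCAM did not pass the filter. In the fit without the filter EPCAM had log2 fold changes against DMSO of 2.07 with the combination (edgeR adjusted p = 0.0667) and 0.60 with PRMT5i (adjusted p = 0.735). Of 4 tested, 3 rose with the combination (PECAM1 by 0.94, KRT18 by 0.75 and KRT8 by 1.22), and 3 rose and 1 fell with PRMT5i.

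Across the 16 libraries the members followed one another. On log2 CPM, the Pearson correlation with HLA-DRA was 0.976 for HLA-DRB1, 0.969 for HLA-DMB, 0.958 for HLA-DQB1, 0.949 for HLA-DMA, 0.944 for CIITA, 0.89 for HLA-DPA1, 0.837 for HLA-DPB1 and 0.782 for CD74. These describe 16 libraries that fall into 4 treatments and share depth and scaling, so they mostly restate the group differences. The comparison took in 9914 genes that code for protein and reached 5 CPM in a group, and those most like HLA-DRA included AMICA1 (r = 0.997), DHRS9 (0.990), COL24A1 (0.988) and CNR2 (0.986). AMICA1, which encodes a leukocyte adhesion molecule, averaged 17.1 CPM with the combination, 31.2 CPM with PRMT5i, 2.97 CPM with EZH2i and 4.29 CPM with DMSO, the same order of groups as HLA-DRA. Those most like CIITA were MYBPH (r = 0.982), TGM2 (0.981), KCTD5 (0.977), CNPY3 (0.976) and PIK3R5 (0.975). MYBPH averaged 59.9 CPM with the combination, 84.6 CPM with PRMT5i, 18.1 CPM with EZH2i and 16.8 CPM with DMSO.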

How the data were processed

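Expression was measured in 16 libraries of Molm13 cells, 4 per treatment. The authors deposited RSEM expected counts per gene, not scaled to depth; per the submitters' processing notes reads were aligned with STAR 2.5.3 to GRCh38.p7 and counted with RSEM, and the annotation, library kit and strandedness are not given in the sources used here. Of the deposited values 12% were not whole, and they were rounded for testing. Genes were kept with filterByExpr (10 counts at the median library), scaled by trimmed mean of M values, and tested with the quasi-likelihood test of edgeR 4.0.16 in R 4.3.3, with 4 group means over all 16 libraries and Benjamini-Hochberg adjustment over 16555 genes (threshold 0.05). CPM are expected counts over the scaled library size; log2 CPM for correlations used a prior count of 2. Totals of 31142456 to 52885899 counts make counting error small except for genes with a few counts. DESeq2 1.42.0, other scalings, no filter, fits of only the groups compared, replicate terms and leaving out each library were the alternatives. The steps were tested on simulated data. The members and gene lists were chosen with earlier results of these data known. Named were all members, up to 3 genes a list with the smallest p with the combination against DMSO, regulators past the threshold with PRMT5i, and the 5 genes most correlated with HLA-DRA and with CIITA; genes outside this rule are marked as such, and some genes that it covers are not reported here. Promoters came from RefSeq (those planned for HLA-DRA and CIITA were not used here), and motifs were searched with Python 3.11.15.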

Additional observations from a re-analysis of the deposited data

Results flagged for a closer look

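Each group of 4 libraries was checked for a library far from the rest, by comparing the gap to its nearest neighbour with the range of the group. Among 40 sets of 4 values (10 members in 4 groups) 4 were flagged, and chance flags about 1 set in 20. CIITA was lowest in combination replicate 4, at 3.19 CPM, against 3.95 to 4.01 CPM in the other 3. HLA-DQB1 was lowest in combination replicate 1, at 2.39 CPM, in a group whose highest library had 2.45 CPM, so the gap is small in size. HLA-DMB was lowest in EZH2i replicate 4, at 0.178 CPM on 6.21 expected counts, against 0.299 to 0.307 CPM on 11 to 14.87 expected counts. HLA-DPA1 was highest in DMSO replicate 1, at 0.139 CPM on 5 counts, against 0.0592 to 0.0669 CPM on 2 to 3 counts. CD74 in DMSO replicate 1, at 43.4 CPM, was not flagged by this measure.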

How the results depend on the processing

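The 7 members that met the minimum in DMSO all rose with PRMT5i, against DMSO and against EZH2i, under each of the 23 alternatives. With the combination 6 to 7 rose against DMSO and against EZH2i, the exception being CD74. The cause of the changes below was not tested. When only the groups compared were fitted, 0 members fell with EZH2i against DMSO in place of 1, and 7 in place of 4 fell with the combination against PRMT5i. DESeq2 called 1 member lower in the interaction, in place of 0. Counted with HLA-DPA1 and HLA-DPB1, which entered through the libraries where they are high and lend no support, leaving out each library gave 8 to 9 members higher with the combination against DMSO and against EZH2i and 9 with PRMT5i against either. It gave 0 to 2 lower with EZH2i against DMSO, and 3 to 5 lower with the combination against PRMT5i.

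Among members, signs turned in values that had not passed. With EZH2i against DMSO, HLA-DQB1 was at 0.091 with total counts only, 0.01 with DESeq2 and between -0.32 and 0.12 with a library left out, CD74 between -0.34 and 0.028, and HLA-DPB1 between -0.024 and 1.51. With the combination against PRMT5i, HLA-DPA1 was at 0.074 and HLA-DPB1 at 0.049 with total counts only, and with a library left out between -0.27 and 0.17 and between -0.23 and 0.19. HLA-DMB in the interaction ran between -0.26 and 0.17 with a library left out. With total counts only and the combination against DMSO, RFXAP was at 0.006 and IRF8 at 0.081.

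For 24 genes named beside the members, 1256 of 1311 values under the alternatives kept their direction and side of the threshold, 53 no longer passed, and the 2 just given changed sign. Among those that no longer passed in 6 or more alternatives of 23 were NFYC (0.31 to 0.73 over all of them) and RFXAP (-0.59 to -0.41) with PRMT5i, GNLY with the combination (0.67 to 1.09), and ITGAM (0.30 to 0.45) and KRT8 (0.64 to 0.91) with EZH2i, each against DMSO.

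The deviations of libraries with the same replicate number had correlations of -0.272 to 0.236 over 24 pairs, 9 of them over 0.1. Libraries with different numbers had -0.358 to 0.472 over 72 pairs, 14 of them over 0.1. The highest, 0.472, was between DMSO replicate 2 and EZH2i replicate 1. With the combination against PRMT5i and with PRMT5i against EZH2i 3 of 4 pairs were over 0.1, and in no comparison were all 4, so the numbers were not taken as pairs. With a replicate block, HLA-DMB passed with the combination against PRMT5i (-0.91, adjusted p = 0.0356), and no other call on a member changed. With a term for replicates 1 and 2 against 3 and 4 it passed too (-0.91, adjusted p = 0.0186).

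Scaling by total counts moved the median of all genes by 0.129 (log2) with the combination against DMSO, and the share of calls that were higher was 65.8% in place of 48.7%; with EZH2i it was 74.7% in place of 54.1%, and with the combination against PRMT5i 86.1% in place of 70.1%. Over all genes, calls with EZH2i against DMSO were 681 higher and 578 lower, against 1050 and 1099 with DESeq2 and 90 and 45 when only those groups were fitted. They moved by over 1.5 times, in 1 direction or both, without PRMT5i replicate 2, EZH2i replicates 1 to 3 or any DMSO replicate, to 289 to 2280 higher and 210 to 2311 lower. With the combination against PRMT5i 482 were higher and 206 lower, against 1212 and 887 when only those groups were fitted, and 748 and 121 with total counts; without combination replicate 1, 2 or 4, PRMT5i replicate 1, 3 or 4, or DMSO replicate 1 they moved by over 1.5 times, within 190 to 661 higher and 73 to 350 lower. Depth limits HLA-DPA1, HLA-DPB1 and HLA-DQA1, with few counts a library. It also limits HLA-DRB1 and HLA-DMB with EZH2i, at 8 to 22 and 6.21 to 14.87 expected counts a library.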
